A study of Rattus norvegicus with 9 samples.

Results

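The miRNAs of the imprinted Dlk1-Dio3 locus were followed in rat serum. They were taken by name from the deposited table: every row whose name, without its arm suffix, is one of 49 precursor names of the locus. Of the 567 rows 63 were members, from 42 precursors, and 7 names (miR-409b, miR-410, miR-495, miR-543, miR-544, miR-679 and miR-758) are not analysed here. The rule uses names and no measured value, but it was set with earlier results of these data known.

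The sera came from adult male Wistar rats with the genotype label wildtype, assigned at random to 3 groups of 3 libraries each. Rats of the early group (EPD) received rotenone, an inhibitor of mitochondrial complex I, by daily intraperitoneal injection at 2 mg per kg for 10 days. The late group (LPD) received it for more than 40 days, up to a terminal stage, and the rest are labelled as controls (Control). The sample labels give rotenone as the treatment of all 9 samples, the controls included, and what the controls were injected with is not stated. Rotenone acts on the whole animal, so serum of this model carries RNA released by any organ. Small RNA libraries were sequenced, and levels are given as CPM, that is, per 1000000 counts of the library after scaling with edgeR's TMM factors.

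The locus is imprinted: its protein-coding genes Dlk1, Rtl1 and Dio3 are expressed from the paternal chromosome, and its non-coding RNAs, among them Meg3 and the miRNA precursors, from the maternal chromosome. The miRNAs are cut from long maternal transcripts and are thus made together. They are known from brain, placenta, embryonic tissue and skeletal muscle, and are low in most other adult tissues. Several of those near Rtl1 are encoded antisense to it and repress it.

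All members with a sequence lay on chromosome 6 of GRCr8, the build of the RefSeq miRNA table, at chr6:134298129-134579527. The deposited counts were made on mRatBN7.2 and carry no coordinates. RefSeq held the mature sequence of 61 of the 63 rows, and all but miR-299b-3p were on the plus strand. The precursors formed 2 groups along the locus. The group around Rtl1 held 13 precursors over 56.4 kb, 5 of them (miR-431, miR-433, miR-127, miR-434 and miR-136) within the bounds of the Rtl1 gene. Then came a gap of 189 kb, followed by 29 precursors over 36.1 kb, from miR-379 to miR-369. The sequences below are those of the members that carry most of the counts or on which the comparisons turn, from RefSeq, 5′ to 3′ and in order along the locus, with the seed (bases 2 to 8, which pair with targets) in capitals.
miR-770-3p: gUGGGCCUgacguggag
miR-431: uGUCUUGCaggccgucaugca
miR-127-3p: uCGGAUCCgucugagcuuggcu
miR-434-5p: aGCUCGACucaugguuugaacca
miR-434-3p: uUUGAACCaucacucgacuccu
miR-136-3p: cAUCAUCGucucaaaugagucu
miR-341: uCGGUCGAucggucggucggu
miR-379-5p: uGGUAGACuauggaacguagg
miR-411-5p: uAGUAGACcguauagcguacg
miR-299a-3p: uAUGUGGGacgguaaaccgcu
miR-299b-3p: uAUGUGGGacgguaaac
miR-494-3p: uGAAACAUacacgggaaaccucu
miR-382-5p: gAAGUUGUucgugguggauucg
miR-134-5p: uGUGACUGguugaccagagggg
miR-485-3p: cAUACACGgcucuccucucuuc
miR-541-5p: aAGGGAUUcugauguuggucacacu
miR-409a-3p: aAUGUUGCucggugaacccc

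The members shared a locus but mostly not a seed. Among the 61 sequences 4 seeds occurred in more than 1 member, each in 2: miR-299a-3p with miR-299b-3p, miR-381-3p with miR-539-3p, miR-376b-5p with miR-376c-5p, and miR-370-5p with miR-1193-3p. Outside the cluster the table held 1 miRNA with the seed of miR-329-3p (miR-362-3p) and 1 with that of miR-377-5p (miR-672-5p). Some members could not be told apart with confidence. All 17 bases of miR-299b-3p match the start of miR-299a-3p. Their counts were equal in all libraries but Control 2 (0 for miR-299b-3p, 1 for miR-299a-3p). They are best read as 1 signal, but the numbers of members below count both names. miR-300-3p and miR-381-3p match in 17 of 18 aligned bases, and miR-376b-5p and miR-376c-5p in 20 of 21. The sources used here do not say how reads were divided between such members.

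The cluster was a small part of serum miRNA. Control libraries held 1108167 to 1539557 counts in total, EPD libraries 1136537 to 1668807 and LPD libraries 132609 to 305019. Members took 0.160% of the counts in Control 1 (Wilson 95% interval 0.153 to 0.168%), 0.0184% in Control 2 (0.0161 to 0.0210%) and 0.0908% in Control 3 (0.0862 to 0.0957%). In EPD they took 0.0274% (0.0250 to 0.0300%), 0.0281% (0.0252 to 0.0313%) and 0.0567% (0.0531 to 0.0605%). By these shares of the raw totals the controls spanned the EPD libraries: Control 1 and Control 3 lay above all 3, and Control 2 below all 3. After TMM scaling, Control 2 (275 CPM summed over members) lay within the EPD libraries (312, 246 and 571 CPM). Its place below EPD thus held for the raw shares only. The Wilson intervals cover counting error only, because reads copied from 1 molecule by PCR are not independent. Control 2 stood apart from the other controls in another way too, since its liver miRNAs (miR-122-5p, miR-192-5p, miR-194-5p, miR-802-5p and miR-193a-3p) summed to 696990 CPM, against 29521 and 56409 in the others and 21043 to 56413 in EPD. Whether this has a part in its low cluster level was not tested. miR-122-5p alone had 662180 CPM in Control 2. With it left out of the library totals the differences between EPD and Control described below moved little (median of the tested members -1.21 against -1.29). Both fits used TMM scaling, which already lessens the weight of 1 abundant miRNA, so little movement was likely beforehand. The part of miR-122-5p in the raw share of Control 2 was not tested.

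A few members carried most of these counts. miR-382-5p held 22.2% of the cluster's counts in Control and EPD together, miR-127-3p 14.1%, miR-134-5p 12.2% and miR-379-5p 8.75%, and with miR-409a-3p and miR-434-3p they made up 68.8%. These 6 came from both groups of precursors: miR-127 and miR-434 lie within Rtl1, miR-379 opens the larger group, miR-382 and miR-134 are neighbours inside it, and miR-409a lies near its end. The neighbouring precursors were often low. miR-433 lies between miR-431 and miR-127, yet it had 1 count in Control and 1 in EPD. Summed over members, the group around Rtl1 had 465, 63.9 and 246 CPM in the Control libraries and 89.5, 74.0 and 148 in EPD, and the miR-379 group 980, 211 and 561 against 223, 172 and 423. Both groups were highest in Control 1, then Control 3, and in both Control 2 lay within or below the range of EPD.

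**Figure D1:**
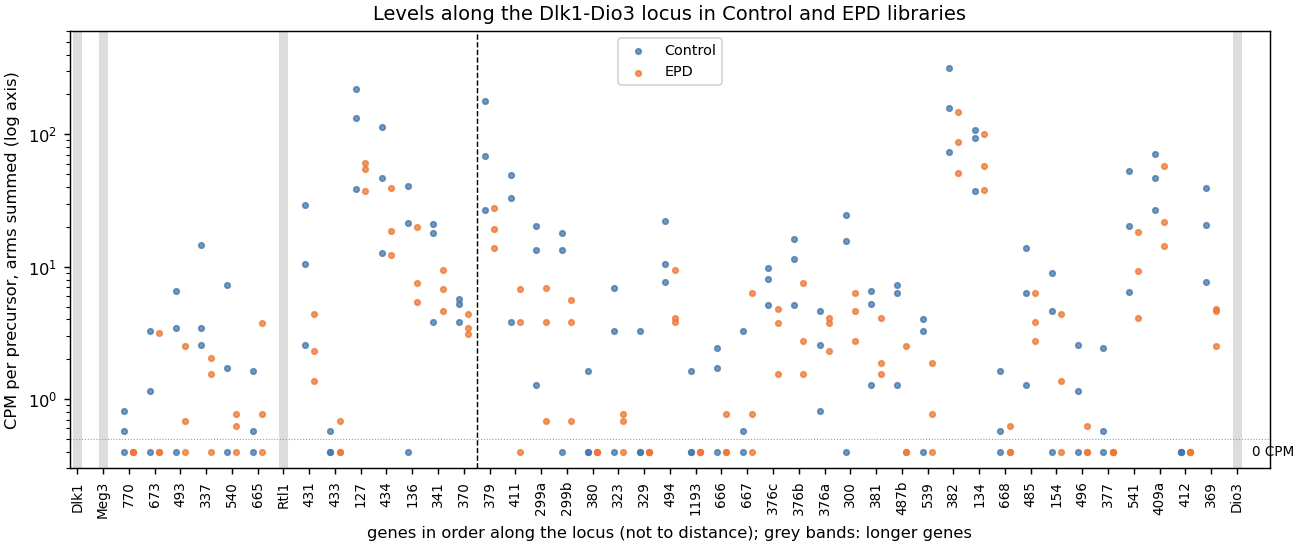
CPM of each precursor, its arms summed (vertical log axis; points under the dotted line are at 0), with precursors and 4 longer genes in order along the locus on the horizontal axis, not to distance. Each point is 1 library of Control (blue) or EPD (orange), and the dashed line marks the gap of 189 kb. High precursors, such as miR-127, miR-379 and miR-382, stand in both groups among others with few or no counts. Some stand next to another high one, as miR-382 does to miR-134 and miR-127 to miR-434.

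miR-127-3p, which is encoded antisense to Rtl1 and directs the cleavage of its mRNA, had 208, 38.3 and 124 CPM in Control 1, 2 and 3 and 50.6, 33.9 and 59.6 CPM in EPD 1, 2 and 3. Control 1 and Control 3 lay above all EPD libraries and Control 2 among them. miR-434-3p, from the same antisense transcript, had 91.2, 11.5 and 38.1 CPM in Control and 10.9, 10.0 and 36.4 in EPD. Here EPD 3 came close to Control 3, and Control 2 stood with the remaining EPD libraries.

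In the miR-379 group, miR-379-5p itself had 177, 25.5 and 68.1 CPM in Control and 19.1, 13.1 and 27.6 in EPD, with an overlap only between Control 2 and EPD 3. miR-382-5p, the most abundant member, had 305, 74.1 and 156 CPM in Control and 86.8, 50.8 and 146 in EPD. Control 2 lay below 2 of the 3 EPD values, and EPD 3 nearly reached Control 3. miR-134-5p, which acts in neuronal dendrites on the kinase Limk1, had 107, 37.0 and 94.1 CPM in Control and 57.4, 37.8 and 101 in EPD. miR-409a-3p had 64.3, 26.8 and 45.0 CPM in Control and 14.3, 20.8 and 54.6 in EPD. For miR-134-5p and miR-409a-3p the groups overlapped widely, and EPD 3 lay above 2 of the 3 controls.

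**Figure D2:**
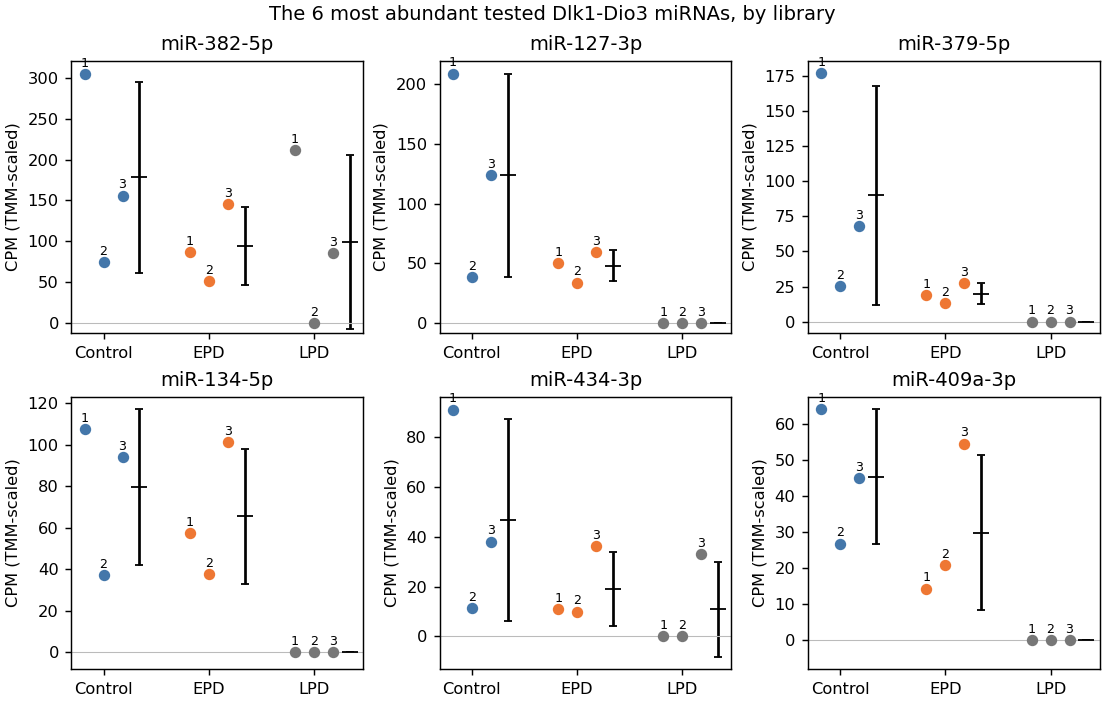
CPM (vertical axis, TMM-scaled) of the 6 most abundant tested members in each library of Control, EPD and LPD, with the replicate number at each point and the mean ± SD (n = 3) in black. For all 6, Control 1 is the highest of the Control and EPD libraries and Control 2 the lowest control.

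No member passed the test between EPD and Control. edgeR's quasi-likelihood test covered 294 miRNAs, 13 of them members, and called 0 (0% of all tested) at an adjusted p of 0.05, members included. DESeq2 called 1 miRNA and limma-voom 0, and neither called a member. The adjusted p of every tested member was 0.995. At an unadjusted p under 0.05 edgeR gave 11 miRNAs (3.74% of all tested), 9 of them lower in EPD (3.06%). A single member was among those 9: miR-379-5p, with a log2 fold change of -2.17 (SE 0.91, unadjusted p = 0.0483), the ninth lowest of the 294. The 3 libraries of a group are separate samples by their titles. These p-values measure only the spread between libraries, part of which may be technical. That spread was estimated over all 9 libraries, LPD included. With Control and EPD fitted alone, the SEs of miR-382-5p, miR-127-3p and miR-379-5p were 0.57, 0.58 and 0.67, against 1.26, 0.87 and 0.91. The adjusted p of miR-379-5p was then 0.347 in edgeR's test, and 0 miRNAs were called.

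The fitted values of the 13 tested members lay on the same side. They ran from -2.17 for miR-379-5p to -0.28 for miR-134-5p, with SEs of 0.68 to 1.52 and a median of -1.29, against a median of -0.05 over all tested miRNAs. The fitted value was lower in EPD for 13 of 13, where it was lower for 53.1% of all tested miRNAs, and by at least 1 log2 unit for 10 of 13, where that held for 15.0%. miR-127-3p stood at -1.36 (SE 0.87), miR-434-3p at -1.29 (SE 1.25), miR-382-5p at -0.92 (SE 1.26) and miR-409a-3p at -0.60 (SE 0.75). Of the less abundant ones, miR-299a-3p stood at -1.66 and miR-541-5p at -1.31, with miR-434-5p also at -1.31. miR-494-3p had -1.19, miR-341 -1.04 and miR-136-3p -1.02. The members come from shared transcripts and the same 6 libraries, so 13 values of 1 sign are not 13 independent observations. To be tested, a miRNA had to reach about 8.80 CPM in at least 3 of the 9 libraries, so members that were high in a single group of libraries were favoured. miR-299a-3p and miR-299b-3p passed on Control 1, Control 3 and LPD 3 alone. Both are counted among the 13, and with miR-299b-3p left out 12 of 12 were lower, with a median of -1.24.

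For 0 of the 13 did all EPD libraries lie below all Control libraries, which held for 8.16% of all tested miRNAs. Control 2 was the lowest control for 13 of 13 and Control 1 the highest for 13 of 13, while over all tested miRNAs these libraries held those places for 151 and 109 of 294. Within EPD, EPD 3 was the highest for 12 of 13 (115 of 294 over all). Control 1 and Control 3 both lay above every EPD library for 10 of 13, among them miR-299a-3p and miR-299b-3p, which passed the filter through these controls. In bulk serum, fewer releasing cells and less RNA released per cell cannot be told apart.

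The size of the difference depended on which control was kept. Without Control 1 the median over the 13 members then tested was -0.35, against 0.01 over all 307 miRNAs tested that way. Of the 13 members 11 had a lower fitted value, while miR-134-5p stood at 0.02 and miR-136-3p at 0.03. Without Control 2 the values moved away from 0. All 13 were then lower, against 45.2% of all miRNAs tested that way, with a median of -1.64 against 0.08 over all tested miRNAs, and 2 of the 13 (miR-379-5p and miR-341) had an unadjusted p under 0.05, against 5.88% of all miRNAs on that side. For 9 of the 13 all EPD libraries lay below both remaining controls, where that held for 23.8% of all miRNAs tested without Control 2. With the scaling of all libraries kept it was 10 of the 13, where it held for 24.5% of the 294. Both the 9 and the 10 include miR-299a-3p and miR-299b-3p. These passed the filter only through Control 1, Control 3 and LPD 3, so they are no support here. 0 members were called without Control 2, and the lowest adjusted p among the 13 in edgeR's test was 0.575. Without EPD 3 the median of the 13 was -1.70. For 4 of the 13 the remaining EPD libraries then lay below all controls, with the scaling of all libraries kept, where that held for 15.0% of the 294. The 3 scalings tried (edgeR's factors, DESeq2's size factors and library totals) turned the sign of none of the 13.

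**Figure D3:**
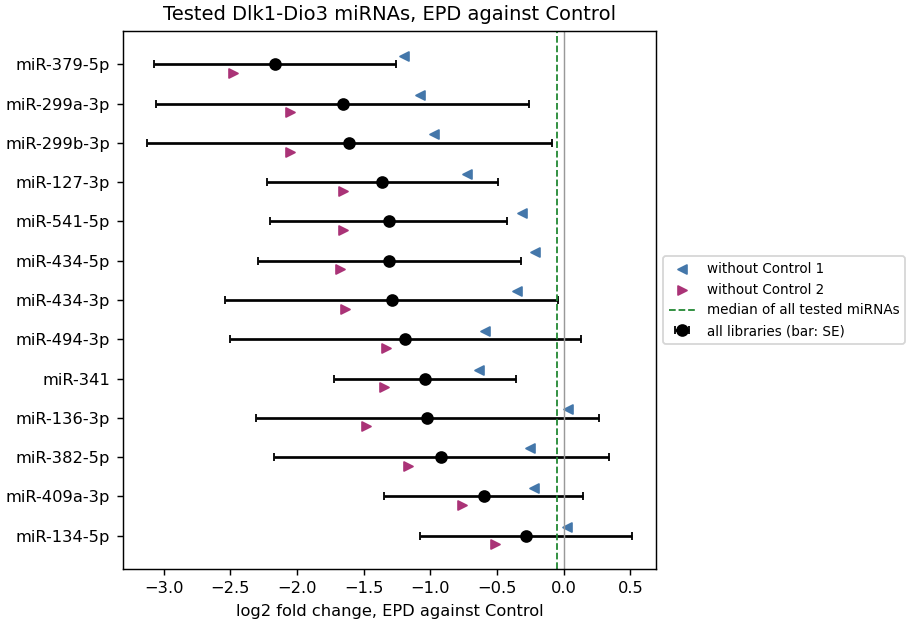
Log2 fold change of EPD against Control (horizontal axis) for each tested member, with its SE in black, and the value without Control 1 (blue) or without Control 2 (purple); the dashed line is the median of all 294 tested miRNAs, -0.05. Every black point lies left of that line, and the values without Control 1 lie closest to 0, with miR-134-5p and miR-136-3p just above it.

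The 50 members that were not tested were low. Of these, 6 had no count in any library, 27 had at most 9 counts in any library, and 17 reached 10 counts somewhere. Mean CPM was lower in EPD than in Control for 16 of those 17, the exception being miR-667-3p (1.28 CPM in Control, 2.35 in EPD). These 17 were picked for reaching 10 counts, most of them in Control libraries only and miR-667-3p in EPD 3 only. The direction of their means is therefore no support. miR-411-5p, the neighbour of miR-379 with a related sequence, had 61, 3 and 57 counts in Control and 10, 5 and 0 in EPD, or 28.8 ± 23.2 against 3.56 ± 3.43 CPM (SD, n = 3). miR-431, antisense to Rtl1, had 36, 2 and 18 counts against 2, 3 and 7. miR-300-3p had 29, 0 and 27 against 4, 6 and 10, and both arms of miR-369 showed like counts (31, 1 and 14 against 2, 4 and 1 for the 5p arm, 17, 5 and 22 against 5, 2 and 3 for the 3p arm). In these 5 rows Control 1 and Control 3 lay above every EPD library, and Control 2 lay within or below the EPD range in all but miR-369-3p. miR-127-5p, miR-376c-3p, miR-376b-3p, miR-376b-5p, miR-487b-3p, miR-337-5p, miR-323-3p, miR-382-3p, miR-154-5p and miR-485-3p had Control means of 3.39 to 7.65 CPM and EPD means of 0.485 to 3.62 CPM. Without Control 2 another 8 members could be tested, 7 of which passed the filter on Control 1 and Control 3 alone and so had to differ. Their values are therefore no support: miR-411-5p then stood at -3.34, miR-369-5p at -3.09, miR-431 at -2.69, miR-369-3p at -2.34 and miR-300-3p at -1.96.

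Counting every member with or without a test, 57 of 63 had a count in Control or EPD, and the mean CPM was lower in EPD for 52 of these 57 and higher for 5. Of the 489 other miRNAs with a count there, 50.9% were lower. In Control 2, 21 members that were present in both other controls had no count. Its total of 1171056 counts was close to that of Control 1, but after TMM scaling its effective library size was 782812 against 1227987, so that less depth was left for miRNAs other than the most abundant, and the part of this in the missing counts was not tested. Detection of the group as a whole was closer: 56 members had a count in at least 1 Control library and 48 in at least 1 EPD library, and 25 and 24 had one in every library of the group.

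Each precursor gives a 5p and a 3p strand, of which usually 1 is kept. For the 17 precursors with both arms in the table and at least 20 counts in all, the 5p arm led in 5. The 3p arm led or tied in 12, the tie being miR-376b (32 counts of each arm). The exact 95% intervals of the leading arm's share in Control and EPD overlapped for 16 of the 17. These intervals pool the libraries of a group and cover counting error only, not the spread between libraries. miR-382 gave 97.5% 5p in Control (703 of 721 counts, exact interval 96.1 to 98.5%) and 98.8% in EPD (425 of 430, 97.3 to 99.6%). miR-127 gave 94.2% 3p in Control (91.8 to 96.0%) and 95.1% in EPD (91.4 to 97.5%), and miR-379 gave 99.2% and 98.9% 5p. In miR-434 the minor arm was better represented, with 81.3% 3p (75.7 to 86.1%) in Control and 82.9% (74.3 to 89.5%) in EPD, and single EPD libraries ran from 54.2% (EPD 2) to 92.1% (EPD 3). miR-369 and miR-376b had no dominant arm, with 48.9% and 47.8% 3p in Control and 58.8% and 55.6% in EPD. The exception was miR-376c, with 100% 3p in Control (88.4 to 100%) and 66.7% in EPD (38.4 to 88.2%), where all 5 counts of the 5p arm were in EPD 1. It was singled out after its values were seen, and its 5p arm is the near copy of miR-376b-5p described above.

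Marker miRNAs of other cells were laid beside the cluster, because a serum level can follow the tissue that releases it. The muscle miRNAs (miR-1-3p, miR-133a-3p, miR-133b-3p, miR-206-3p and miR-499-5p, all 5 tested, 4 of 5 lower in EPD, 0 called) summed to 7725, 1436 and 4160 CPM in Control and 338, 497 and 4975 in EPD. Cluster members summed to 1446, 275 and 807 CPM and to 312, 246 and 571. In both sums Control 1 was highest, then Control 3, then Control 2, Control 1 exceeding Control 2 by 5.38 times for muscle and 5.26 times for the cluster, and EPD 3 was the highest EPD library. EPD 3 exceeded Control 3 in the muscle sum and lay below it in the cluster sum. The part of muscle RNA in the cluster's difference was not tested.

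The sum of imprinted miRNAs of other loci was also lowest, among the controls, in Control 2. miR-675 comes from H19, miR-483 from an intron of Igf2, and miR-296 and miR-298 from the Gnas locus. These 8 rows summed to 322, 60.0 and 318 CPM in Control and 174, 109 and 148 in EPD, with 4 of 4 tested rows lower in EPD and 0 called (median -0.75). miR-675-3p had 13.0, 0 and 11.0 CPM in Control and 0, 0 and 1.88 in EPD. Not every row had that order: miR-483-5p, with 17.1, 8.94 and 6.93 CPM in Control, was lowest in Control 3, and miR-298-3p was at 0 in both Control 1 and Control 2. The mesenchymal miRNAs (miR-199a-3p, miR-199a-5p, miR-214-3p, miR-143-3p, miR-145-5p and miR-140-3p) were the list whose sums did not overlap, with 134050, 96767 and 107690 CPM in Control and 55703 to 58055 in EPD. There 6 of 6 had a lower fitted value in EPD and 0 were called. In the sum Control 1 exceeded Control 2, the lowest control here too, by 1.39 times. Single rows differed: miR-199a-3p, miR-214-3p and miR-140-3p were lowest in Control 2 and miR-199a-5p in Control 3. miR-143-3p (25929, 48790 and 25125 CPM in Control) and miR-145-5p (1235, 5981 and 1411) were highest in Control 2. For miR-145-5p all EPD libraries (1865, 1795 and 2018.5 CPM) lay above Control 1 and Control 3.

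The sum of the neuronal miRNAs was 4911, 9279 and 6247 CPM in Control and 7072, 3859 and 14693 in EPD, nearly all of it miR-128-3p, and 3 of 5 tested were lower with a median of -0.09. Without miR-128-3p the sum was 103, 86.9 and 121 CPM in Control and 124, 85.5 and 56.5 in EPD, and some members, such as miR-9a-5p (43.2, 21.7 and 26.0 CPM in Control), were highest in Control 1. The defining neuronal miRNA miR-124-3p had no counts in any library but EPD 2 (1.54 CPM). Red cell miRNAs had higher fitted values in EPD (5 of 5, median 0.76, 0 called), where 53.1% of all tested miRNAs were lower. They summed to 158800, 84573 and 169290 CPM in Control and 394880, 163420 and 153210 in EPD, so that only EPD 1 lay above all controls. Platelet miRNAs were higher in 3 of 4, with sums of 66633, 112770 and 79020 against 109910, 102330 and 194730, where only EPD 3 lay above all controls. By these sums Control 2 was the lowest control for the red cell list and the highest for the platelet list. Not every row had that order: miR-144-3p (43.2, 66.4 and 148 CPM in Control) was lowest in Control 1. Of the platelet list, miR-223-3p and miR-191a-5p were highest in Control 2. miR-126a-3p (9967.5, 9069 and 12313 CPM in Control) and miR-126a-5p (3950, 2445 and 5001) were lowest there.

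**Figure D4:**
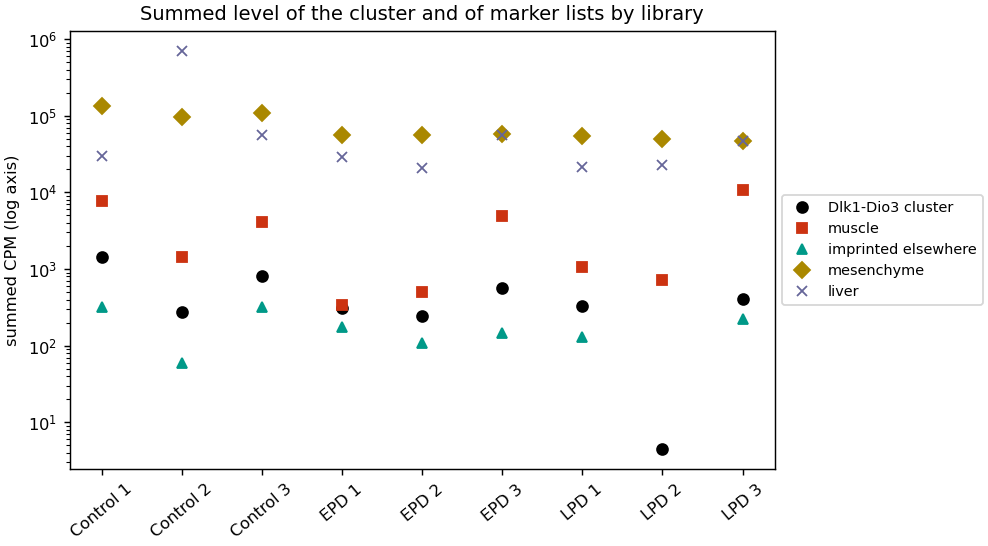
Summed CPM (vertical log axis) of the cluster and of 4 marker lists in each of the 9 libraries (horizontal axis); a sum of 0 (the other imprinted miRNAs in LPD 2) is not drawn. Control 2 is the lowest control for the cluster (275 CPM), the muscle list (1436 CPM), the other imprinted miRNAs (60.0 CPM) and the mesenchymal list (96767 CPM), while the liver list peaks there.

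In LPD the members were read for detection only. A total of 8 of the 63 had a count in any LPD library, against 56 in Control and 48 in EPD, and none had one in all 3. LPD 1 held 64 counts of miR-382-5p and 36 of miR-485-3p and no other member. LPD 2 held a single count, of miR-380-5p. LPD 3 held 15 counts of miR-770-3p, 13 of miR-382-5p, 12 of miR-494-3p, 8 under each of the miR-299a-3p and miR-299b-3p names and 5 of miR-434-3p. miR-382-5p, the most abundant member elsewhere, was thus the only one seen in more than 1 LPD library. Some of the others are rare elsewhere: miR-770-3p had 2 counts in Control and 0 in EPD, and miR-485-3p 17 and 16.

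The LPD totals alone would have left room for several members. At the mean share of the 6 Control and EPD libraries, members would have had 194, 133 and 84.3 counts in LPD 1, 2 and 3, against 100, 1 and 61 found. The highest shares in that mean are those of Control 1 (0.160%) and Control 3 (0.0908%). Members took 0.0328% of the counts in LPD 1 and 0.0460% in LPD 3, both within the EPD range of 0.0274 to 0.0567%. In LPD 2 they took 0.000476%, below all Control and EPD libraries. miR-127-3p would have had 27.3, 18.8 and 11.9 counts, miR-134-5p 22.6, 15.5 and 9.81 and miR-379-5p 17.7, 12.2 and 7.71, and each had 0 in all 3. miR-382-5p would have had 42.8, 29.5 and 18.6 and had 64, 0 and 13. A count of 0 allows up to 3 counts, which is 9.94 to 19.8 CPM in these libraries, for counting error only. The LPD libraries also lack low counts of any miRNA: 3, 9 and 39 rows had 1 to 9 counts, against 150 to 157 in Control and 155 in both EPD 1 and EPD 2, and EPD 3 had over 3 times as many as LPD 3. No fold is given for LPD, since 0 there may not mean the same as in the other libraries.

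Missing counts in LPD were also common outside the cluster. miR-299a-3p and miR-299b-3p were tested only through LPD 3, so they had to have a count there. Of the 11 members that reached about 8.80 CPM in at least 3 Control and EPD libraries, 3 (miR-382-5p, miR-434-3p and miR-494-3p) had a count in some LPD library. Of 129 miRNAs outside the cluster chosen in the same way and in the same range of mean CPM over Control and EPD (from 7.48 up to the mean of miR-382-5p), 56.6% had one. This difference was not tested. LPD 3 also had the highest muscle sum of all libraries (10819 CPM, against 1067 and 715 in LPD 1 and LPD 2), and the part of this in its cluster counts was not tested.

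**Figure D5:**
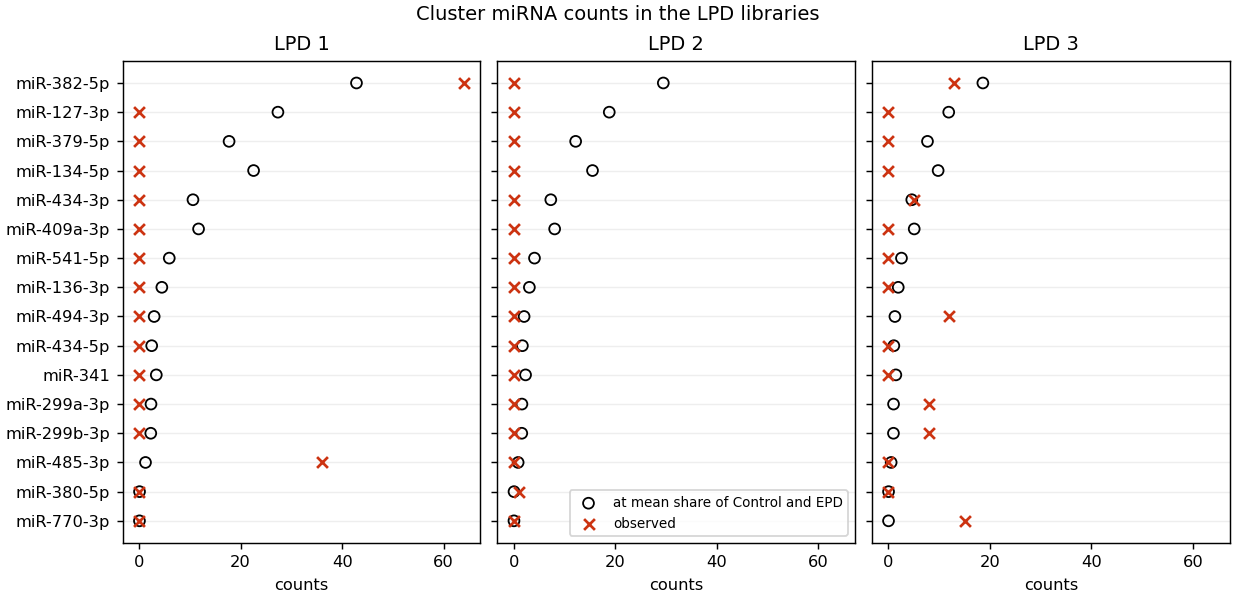
Counts (horizontal axis) of the tested members and of the 3 others seen in LPD, in each LPD library: observed counts (red crosses) and the counts a member would have at its mean share of the Control and EPD libraries (open circles). miR-127-3p, miR-379-5p and miR-134-5p are at 0 throughout, while miR-485-3p in LPD 1 and miR-770-3p in LPD 3 lie far above their circles.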

How the data were processed

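Small RNA of 9 serum samples was sequenced. Per the labels' protocols the RNA came from a miRNeasy serum kit and the libraries from a QIAseq miRNA kit. The headers of the counts number the EPD and LPD samples alike, and whether matching numbers stand for the same rats was not tested. The authors deposited whole-number read counts per mature miRNA, 1 file per library and 1 matrix, and 0 values differed between them. The submitters' processing notes name the build mRatBN7.2. Aligner, counting tool, miRNA annotation, filters and use of molecular identifiers: not given in the sources used here.

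From these counts, edgeR 4.0.16 (R 4.3.3) kept miRNAs with filterByExpr by group (10 counts, 15 in total), scaled libraries by TMM and fitted all 3 groups with a robust quasi-likelihood model, checked on simulated data. P-values were adjusted over all tested miRNAs (Benjamini-Hochberg, threshold 0.05), and SEs came from the same fit. Alternatives were DESeq2 1.42.0, limma-voom 3.58.1, other scalings and filters, Control and EPD alone, the replicate number as a block, and each library left out.

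Groups and replicate numbers came from the titles. Tested members got fold changes, those with a mean of at least 20 CPM in Control and EPD their value in every library, and untested members with 10 counts in a library were named. Arms were compared from 20 counts. Members and lists were chosen with earlier results of these data known. Sequences came from RefSeq (GRCr8).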

Additional observations from a re-analysis of the deposited data

How the results depend on the processing

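Members called stayed at 0 in all 18 alternatives, and the median of the tested members stayed negative in all 19, between -1.95 (without EPD 3, over 21 members) and -0.35 (without Control 1, over 13). Over the 13 members tested with all libraries the medians of these were -1.70 and -0.35. Over all miRNAs DESeq2 called 1 and leaving out a library called 0 to 1 (1 without Control 2, 0 otherwise). Members with a lower value numbered 52 of 57 with no filter on low counts, 19 of 20 when counts in all 6 Control and EPD libraries were required, 12 of 13 with limma-voom (miR-136-3p at 0.38), and 11 to 21 when a library was left out, where more members could be tested. With the scaling of all libraries kept, members of the 13 without overlap between the groups numbered 0 to 10 when a library was left out. There were 10 without Control 2 (24.5% of all tested miRNAs, 9 with the scaling redone) and 4 without EPD 3 (15.0%). The 10 and the 9 include miR-299a-3p and miR-299b-3p, which passed the filter only through Control 1, Control 3 and LPD 3. miR-134-5p ran from -0.73 (without EPD 3) to 0.025 (without Control 1) when a library was left out, and miR-136-3p stood at 0.03 without Control 1. The log2 ratio of the summed cluster CPM was -1.16, and -1.59 to -0.52 when a library was left out (-0.52 without Control 1, -1.58 without Control 2). With at least 10 counts required, 28 members were detected in Control, 14 in EPD and 4 in LPD, and with a count required in every library 25, 24 and 0. Deviations from the group means had correlations of -0.09, 0.06 and -0.06 between same-numbered Control and EPD libraries. Only Control 2 and EPD 2 correlated best with their own number. With 3 libraries per group this cannot decide whether the numbers pair the libraries. With the replicate number as a block the median was -1.10, 13 of 13 were lower and 0 were called. The alternative without miR-122-5p in the totals and that without miR-299b-3p (median -1.24) were chosen after seeing the data. Depth limits the members: 33 of the 63 never reached 10 counts in a library.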

Other observations

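Another 2 miRNAs of the table lie at the locus but are not among the names used: miR-3544, on the strand opposite to miR-337-5p, had 2 counts, both in EPD 1, and miR-1188-5p had 0 in all libraries.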
